A study of Homo sapiens with 7 samples.

Results

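Ephrins, semaphorins, netrins and SLIT proteins are the classical ligands of axon guidance, and this account covers their transcripts and those of their receptors in 769-P, a long-established line of human clear cell renal carcinoma cells. The genes were chosen by symbol and not by any measured value: ephrins (EFNA, EFNB), Eph receptors (EPHA, EPHB), semaphorins (SEMA3 to SEMA7), plexins (PLXNA to PLXND), neuropilins (NRP1, NRP2), netrins (NTN1 to NTN5), UNC5 receptors (UNC5A to UNC5D), SLIT ligands (SLIT1 to SLIT3) and ROBO receptors (ROBO1 to ROBO4). Of 33117 gene identifiers in each library, 66 symbols met this rule, with 20 semaphorins, 13 Eph receptors, 9 plexins, 8 ephrins, 4 ROBO and 4 UNC5 receptors, 3 netrins, 3 SLIT ligands and 2 neuropilins. EPHA8, NTN5 and the netrin receptor DCC were not among the listed symbols and so could not be analysed here.

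RNA was sequenced from 7 libraries of 769-P cells grown in the same serum-containing medium. Lat-M1 had 2 libraries, Lat-M2 had 2 and PA had 3. Lat-M cells are named latent metastatic in the series title, and it is not stated what the first Lat-M number stands for, what PA abbreviates, or whether the libraries of a group came from separate cultures. Both Lat-M groups are derivatives of 1 cell line, so other renal cancers are not represented, and p-values speak of the scatter among these libraries alone, which could be purely technical.

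Ephrins are membrane-bound ligands, ephrin-A anchored by a lipid and ephrin-B by a transmembrane segment, and they signal to Eph receptor tyrosine kinases where cells touch. Semaphorins are secreted or membrane proteins that act through plexins, and most secreted class 3 semaphorins need a neuropilin as co-receptor, which also binds vascular endothelial growth factors. Netrins act through DCC, neogenin and UNC5 receptors, and SLIT ligands through ROBO receptors. Outside the nervous system these systems are known for cell repulsion, vessel patterning, kidney development and the movement of tumour cells.

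Promoters are shown for 5 genes on which the results below turn. EFNA1, PLXND1 and EPHB4 were higher in each Lat-M group than in PA, while NTN4 and EPHA7 were lower in Lat-M1 and higher in Lat-M2 than in PA. The EPHB4 call in Lat-M2 ended in several alternatives given below. EFNB1, SEMA3F and PLXNA1 were also called higher in both groups, and NTN1, ROBO1, SEMA7A and PLXNA2 in opposite directions. Their windows are not shown, and whether promoter letters go with either pattern was not tested. The sequences are from RefSeq on GRCh38.p14 and give the 250 bases before the outermost listed start, at chr1:155127626-155127875 (plus strand) for EFNA1, chr3:129606677-129606926 (minus strand) for PLXND1, chr7:100827524-100827773 (minus strand) for EPHB4, chr12:95791156-95791405 (minus strand) for NTN4 and chr6:93419560-93419809 (minus strand) for EPHA7. NTN4 has 2 listed starts and EPHA7 has 3. Capitals mark ACGTG or GCGTG on either strand, the core letters of the hypoxia response element, chosen because hypoxia factors are known to be active in this cancer type.
EFNA1: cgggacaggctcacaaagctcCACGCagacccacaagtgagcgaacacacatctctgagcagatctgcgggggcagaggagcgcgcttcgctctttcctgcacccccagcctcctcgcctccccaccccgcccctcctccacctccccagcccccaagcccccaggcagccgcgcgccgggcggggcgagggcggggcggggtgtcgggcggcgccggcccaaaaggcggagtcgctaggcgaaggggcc
PLXND1: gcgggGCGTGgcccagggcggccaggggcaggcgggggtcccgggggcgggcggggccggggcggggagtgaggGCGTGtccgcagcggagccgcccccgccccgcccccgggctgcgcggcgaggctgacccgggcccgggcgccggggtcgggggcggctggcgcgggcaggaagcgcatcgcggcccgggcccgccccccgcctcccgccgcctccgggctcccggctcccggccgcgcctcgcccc
EPHB4: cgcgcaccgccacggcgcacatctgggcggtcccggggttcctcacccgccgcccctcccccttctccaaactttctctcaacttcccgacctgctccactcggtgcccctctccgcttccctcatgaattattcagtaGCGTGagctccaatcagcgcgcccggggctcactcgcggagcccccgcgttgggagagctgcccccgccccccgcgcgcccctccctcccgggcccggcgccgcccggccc
NTN4: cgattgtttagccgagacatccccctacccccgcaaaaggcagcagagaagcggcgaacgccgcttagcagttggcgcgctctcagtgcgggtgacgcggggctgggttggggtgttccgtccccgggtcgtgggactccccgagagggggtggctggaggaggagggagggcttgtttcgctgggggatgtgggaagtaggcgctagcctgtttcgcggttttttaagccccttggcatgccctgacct
EPHA7: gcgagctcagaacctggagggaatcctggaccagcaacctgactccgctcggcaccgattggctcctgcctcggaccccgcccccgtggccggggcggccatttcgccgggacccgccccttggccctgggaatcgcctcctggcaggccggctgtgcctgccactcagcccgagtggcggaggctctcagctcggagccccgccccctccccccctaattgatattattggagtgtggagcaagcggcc
The letters occur once in EFNA1 (on the minus strand, hence printed as CACGC), at 2 places in PLXND1 and once in EPHB4, and they are not in the windows of NTN4 and EPHA7. They are common letters: 43.2% of 35116 RefSeq promoter windows of this length hold them, and 15 of 35 tested guidance genes with a listed promoter did (42.9%). The AP-1 letters TGANTCA were in none of the 5 windows and in 6.57% of all windows. RefSeq promoters were at hand for 56 of the 66 genes.

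Expression is given in TPM, transcript abundance per length scaled to 1000000 per library, so levels can be set side by side between genes. TPM keeps no read totals and the depth of the libraries is unknown. Only genes averaging 1 TPM or more over the 7 libraries entered the limma test, made on log2(TPM + 1), and a gene was called changed at a Benjamini-Hochberg adjusted p under 0.05 over all 16724 tested genes. Structural RNAs (RMRP, RN7SK, RN7SL1 and RN7SL2) took 18.6 to 21.9% of TPM in Lat-M1, 22.9 to 27.7% in Lat-M2 and 29.5 to 31.8% in PA, and against PA the tested genes as a whole had a median log2 fold change of 0.16 for Lat-M1 and 0.14 for Lat-M2. Calls that ended after median-ratio scaling, which removes that shift, are therefore named. The libraries expressed renal markers (PAX8 at 65.6 to 87.9 TPM, with KRT8, KRT18 and VIM), although CA9 was at most 0.156 TPM and KRT19 at most 0.0761 TPM. PAX2 was low, at means of 0.827 TPM in Lat-M1, 1.61 TPM in Lat-M2 and 0.688 TPM in PA. Endothelial markers summed to at most 0.105 TPM with CDH5 at 0, MBP was the one neuronal or glial marker of 5 listed that reached 1 TPM, and the leukocyte marker PTPRC was at most 0.0121 TPM. CD68, a lysosomal marker of macrophages, made up nearly all of the leukocyte list and averaged 14.8 TPM in Lat-M1, 40.7 TPM in Lat-M2 and 46.7 TPM in PA; the list summed to 14.1 to 15.6 TPM, 39.7 to 41.8 TPM and 45.6 to 48.2 TPM in these groups. The sum of 8 fibroblast and pericyte markers was 21.9 to 23.8 TPM in Lat-M1, 6.93 to 8.87 TPM in Lat-M2 and 5.18 to 5.53 TPM in PA. Most of the Lat-M1 sum was COL1A1, while COL1A2 stayed at or below 0.00922 TPM and DCN at or below 0.0364 TPM in all libraries. RGS5, the other marker of that list to reach 1 TPM, was lowest in Lat-M1. It averaged 2.02 TPM in Lat-M1, 4.29 TPM in Lat-M2 and 3.71 TPM in PA. The part of these differences in the results below was not tested.

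Of the 66 guidance genes, 39 were tested. EPHA6, EPHB4, ROBO1 and PLXNA2 had a mean under 1 TPM in a group and passed the filter through the other groups. Lat-M1 had 20 guidance genes higher and 9 lower than PA (29 of 39, or 74.4%), where 44.8% of all tested genes were called, 33.2% as higher and 11.6% as lower. The median absolute log2 fold change was 0.58 over the 39 genes and 0.29 over all tested genes. At 2-fold or more in TPM + 1, the scale of the fit, 7 were higher and 3 lower, against 4.77% and 2.75% of all genes. All 2-fold limits on called genes are on this scale, which shrinks the changes of genes at low TPM. Lat-M2 against PA gave 10 higher and 4 lower (35.9%, against 14.9% of all tested genes, 12.7% higher and 2.24% lower). Of these, 2 were at least 2-fold higher and none at least 2-fold lower, against 1.04% and 0.448% of all genes. NRP2 (means of 1.73 TPM in Lat-M2 and 3.98 TPM in PA) and EPHB4 (1.41 and 0.341 TPM) were called but fell short of 2-fold in TPM + 1. Lat-M2 against Lat-M1 gave 11 higher and 14 lower (64.1%, against 36% of all tested genes, 16% higher and 20.1% lower), with 5 and 4 of them at least 2-fold, against 3.44% and 3.28% of all genes. After scaling the counts were 16 higher and 9 lower in Lat-M1 against PA (47% of all genes called, 24% higher and 23% lower). They were 9 higher and 7 lower in Lat-M2 against PA (15.9%, 7.47% higher and 8.41% lower), and 11 higher and 15 lower in Lat-M2 against Lat-M1 (44.2%, 21.6% higher and 22.6% lower). The Lat-M2 count against PA was 6 without the first Lat-M2 library and 9 without the third PA library or either Lat-M1 library. Shares over all tested genes are not given here for fits without a library, so these counts cannot be set against all genes. The Lat-M1 and Lat-M2 comparisons with PA share the same 3 PA libraries.

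**Figure D1:**
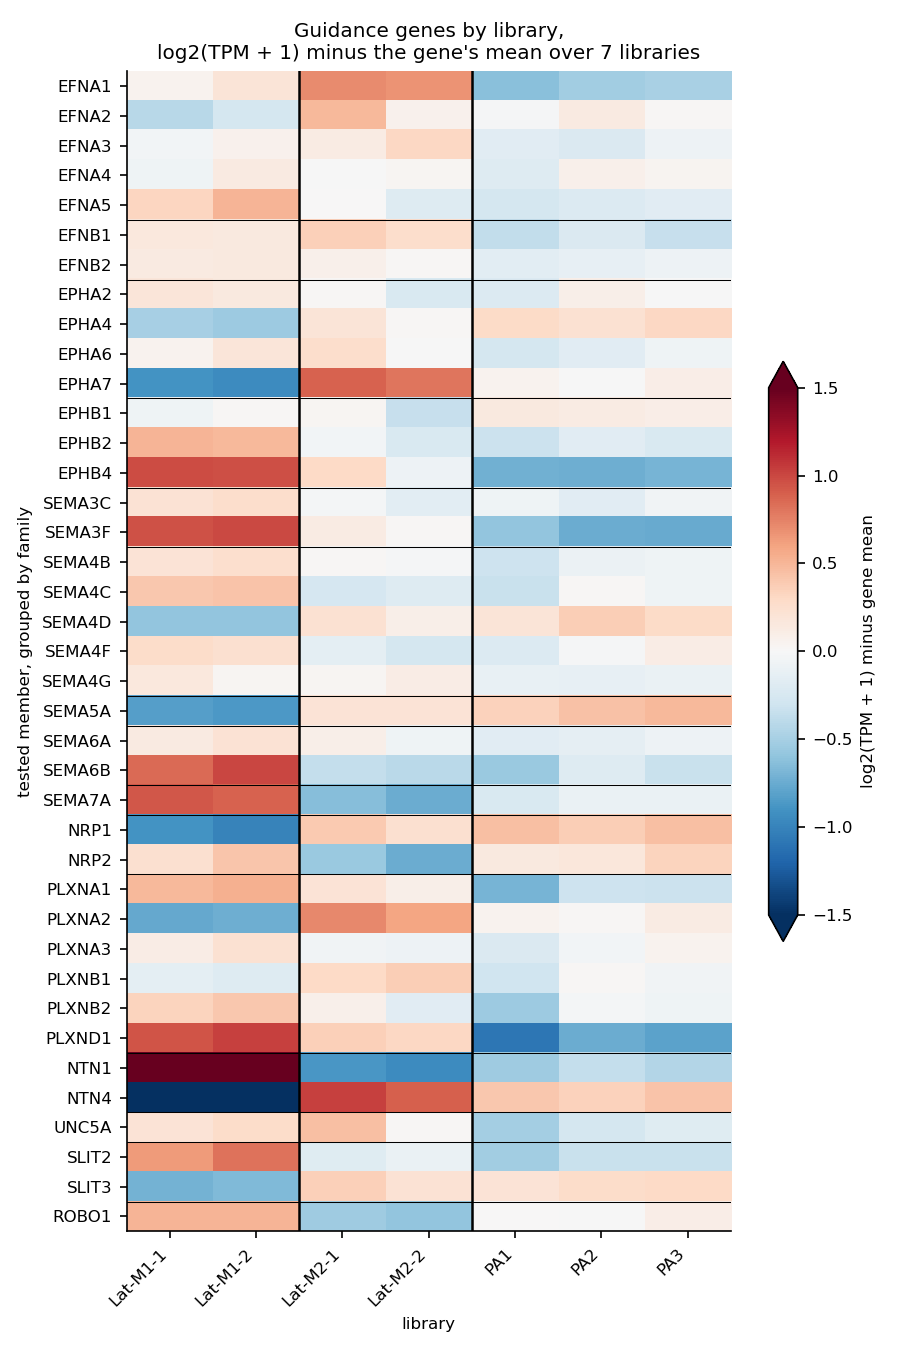
Each row is 1 of the 39 tested guidance genes and each column 1 of the 7 libraries, Lat-M1, Lat-M2 and PA from left to right; colour gives log2(TPM + 1) minus the gene's mean over the 7 libraries. NTN1 and NTN4 stand at the ends of the colour scale in both Lat-M1 libraries, in opposite directions, and the libraries of a group resemble each other.

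Among the ephrin ligands, 4 of 7 tested members rose and 1 fell in Lat-M1 and 2 of 7 rose in Lat-M2, both against PA (3 higher and 1 lower in Lat-M1, and 2 higher in Lat-M2, after scaling). Over all tested genes 33.2% were higher and 11.6% lower in Lat-M1, and 12.7% higher and 2.24% lower in Lat-M2. After scaling these shares were 24% and 23%, and 7.47% and 8.41%. The 1 ephrin of 7 that fell in Lat-M1 was thus near the share of all genes before scaling. As these are bulk libraries, fewer cells with a transcript and less of it per cell cannot be told apart. EFNA1, an ephrin-A ligand first known as a gene induced by tumour necrosis factor, was at 23.6 and 26.1 TPM in Lat-M1, at 37.8 and 37.0 TPM in Lat-M2 and at 14.4, 15.6 and 15.9 TPM in PA. Lat-M2 was highest and PA lowest, and the 3 groups did not overlap. The log2 fold change against PA was 0.66 ± 0.071 in Lat-M1 (SE; limma adjusted p = 0.000315) and 1.24 ± 0.071 in Lat-M2 (limma adjusted p = 0.000151). Lat-M2 also exceeded Lat-M1, by 0.57 ± 0.078 on the log2 scale (limma adjusted p = 0.00132).

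EFNB1, a transmembrane ligand of EphB receptors, also rose in each Lat-M group. Its mean was 6.95 ± 0.0111 TPM in Lat-M1 and 7.87 ± 0.417 TPM in Lat-M2 (SD, n = 2 each) and 4.79 ± 0.333 TPM in PA (n = 3). The log2 fold change was 0.46 ± 0.085 for Lat-M1 and 0.62 ± 0.085 for Lat-M2 against PA (limma adjusted p = 0.00409 and 0.00725), and the Lat-M2 call ended without the first Lat-M2 library (limma adjusted p = 0.0595). EFNA5, an ephrin-A ligand with roles in retinal mapping, rose in Lat-M1, at 24.9 ± 2.3 TPM in Lat-M1 against 15.6 ± 0.623 TPM in PA (0.63 ± 0.087, limma adjusted p = 0.00104). In Lat-M2 it was at 17.0 ± 1.75 TPM and missed the test against PA (limma adjusted p = 0.408).

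EFNB2, the arterial ligand of EphB4, was the most abundant ephrin by mean in PA, yet its shifts were small. It averaged 36.7 ± 0.323 TPM in Lat-M1, 34.3 ± 1.02 TPM in Lat-M2 and 30.6 ± 0.867 TPM in PA, and its Lat-M1 rise (0.26 ± 0.054, limma adjusted p = 0.00753) ended on scaling (0.121) and without the second Lat-M1 library (limma adjusted p = 0.0625). EFNA2 was the ephrin that fell in Lat-M1, to 4.82 ± 0.42 TPM against 6.61 ± 0.408 TPM in PA (-0.39 ± 0.13, limma adjusted p = 0.0499). That call ended without any 1 of the PA or Lat-M1 libraries (limma adjusted p = 0.0647 to 0.217). EFNA2 was higher in Lat-M2 than in Lat-M1 (0.62 ± 0.15, limma adjusted p = 0.0146), a call that ended without the first library of Lat-M1 (0.0816) or of Lat-M2 (0.0527, limma adjusted p). EFNA4 was called in no comparison, at group means of 11.4 to 11.9 TPM. EFNA3 is listed under 2 identifiers. The tested one has the higher mean but is a separate gene, AL691442.1, in GENCODE 29; it was at group means of 1.0 to 1.59 TPM and was called in no comparison. The identifier that GENCODE 29 names EFNA3 averaged 1.12 ± 0.0659 TPM in Lat-M1, 1.38 ± 0.167 TPM in Lat-M2 and 0.949 ± 0.113 TPM in PA. Exons of AL691442.1 overlap both EFNA3 and EFNA4 on the same strand, so reads may have been split between them; EFNA4, EFNA3 and EFNA1 lie next to each other on chromosome 1. EFNB3 did not exceed 0.0608 TPM.

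Among Eph receptors EPHA7 outweighed the others and moved in opposite directions in the Lat-M groups. EPHA7, a receptor for ephrin-A ligands, was at 265 and 256 TPM in Lat-M1, 917 and 865 TPM in Lat-M2 and 515, 495 and 530 TPM in PA. All Lat-M1 values lay below and all Lat-M2 values above the PA values. On the log2 scale the change against PA was -0.97 ± 0.056 in Lat-M1 (limma adjusted p = 1.65e-05) and 0.79 ± 0.056 in Lat-M2 (limma adjusted p = 0.000352), and Lat-M2 exceeded Lat-M1 by 1.77 ± 0.061 (limma adjusted p = 2.34e-06). Ranked by TPM among all listed genes, EPHA7 stood at 452 and 497 in Lat-M1, at 73 in both Lat-M2 libraries and at 144 to 154 in PA. It made up 66.5% of the TPM summed over the Eph receptors in Lat-M1, 90.1% in Lat-M2 and 84.1% in PA. The family sum itself was 393 ± 7.72 TPM in Lat-M1, 990 ± 47.5 TPM in Lat-M2 and 610 ± 16.0 TPM in PA.

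EPHB4, the receptor of ephrin-B2 known from venous endothelium, was low in PA and higher in each Lat-M group. Its level was 3.36 and 3.31 TPM in Lat-M1, 1.73 and 1.09 TPM in Lat-M2 and 0.337, 0.326 and 0.360 TPM in PA. The groups did not overlap, and the 2 Lat-M2 libraries lay further apart than those of the other groups. EPHB4 entered the test only through its Lat-M libraries, as its PA mean of 0.341 TPM was under the 1 TPM limit. The fitted change against PA, on the log2 scale, was 1.69 ± 0.18 in Lat-M1 (limma adjusted p = 0.000289) and 0.84 ± 0.18 in Lat-M2 (limma adjusted p = 0.0254). The Lat-M2 call ended without any 1 library other than the second of Lat-M2 (limma adjusted p = 0.0543 to 0.134). Lat-M2 was below Lat-M1 (-0.86 ± 0.19, limma adjusted p = 0.0125), a call that ended without either Lat-M1 library (0.0694 and 0.0668) or the second Lat-M2 library (0.0538, limma adjusted p). EPHB4 has exons that overlap SLC12A9 on the opposite strand, which averaged 5.12 TPM in Lat-M1, 4.67 TPM in Lat-M2 and 3.47 TPM in PA, and whether the quantification used strand is not given in the sources used here.

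EPHB2, a receptor for ephrin-B ligands studied in intestinal crypts, rose in Lat-M1 to 69.8 ± 0.794 TPM, against 41.7 ± 2.27 TPM in PA (0.73 ± 0.075, limma adjusted p = 0.000258), and stood at 45 ± 4.09 TPM in Lat-M2 (limma adjusted p against PA = 0.359). EPHA4, which binds ephrins of both classes, fell in Lat-M1 to 3.98 ± 0.123 TPM, against 7.62 ± 0.26 TPM in PA (-0.79 ± 0.088, limma adjusted p = 0.000371). In Lat-M2 EPHA4 was at 6.69 ± 0.68 TPM and passed the test against PA after scaling (limma adjusted p = 0.228, and 0.0332 scaled). EPHA2, an epithelial receptor for ephrin-A1, had means of 51.1, 42.5 and 44.3 TPM in Lat-M1, Lat-M2 and PA and passed in no comparison. EPHA6 and EPHB1, at group means of 0.985 to 1.43 TPM and 1.16 to 1.59 TPM, passed in none either. The other 6 Eph receptors stayed below 0.5 TPM in every library.

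**Figure D2:**
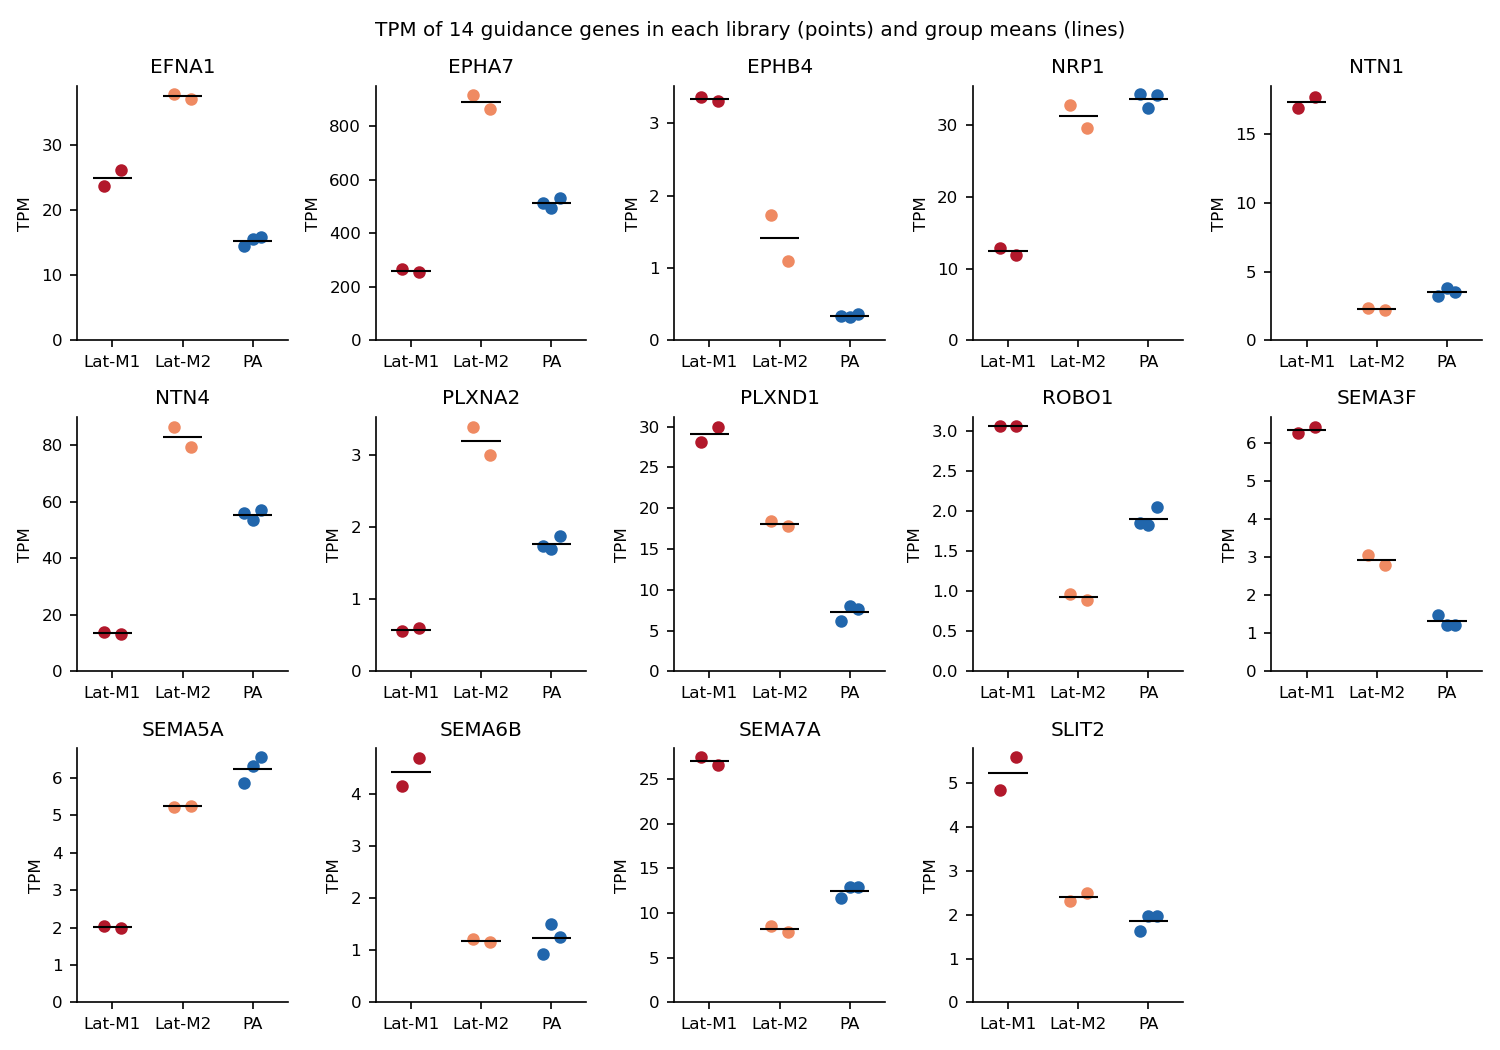
TPM of 14 guidance genes in each library (points) with group means (lines), for Lat-M1, Lat-M2 and PA; each panel has its own axis from 0. EPHA7, NTN4 and PLXNA2 lie below PA in Lat-M1 and above it in Lat-M2, NTN1, SEMA7A and ROBO1 the other way, and EFNA1, EPHB4, PLXND1 and SEMA3F lie above PA in both Lat-M groups.

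Of 11 tested semaphorins, 7 were higher and 2 lower in Lat-M1 than in PA (6 and 2 after scaling), where 33.2% of all tested genes were higher and 11.6% lower (24% and 23% after scaling). In Lat-M2 against PA 1 was higher and 1 lower (1 and 2 after scaling). Of all tested genes 12.7% were higher and 2.24% lower there (7.47% and 8.41% after scaling), so the 1 higher of 11 was near the share of all genes. SEMA7A, a lipid-anchored semaphorin that acts through integrins and plexin C1, was at 27.5 and 26.6 TPM in Lat-M1, 8.55 and 7.93 TPM in Lat-M2 and 11.7, 12.9 and 12.9 TPM in PA. Lat-M1 was the highest and Lat-M2 the lowest group, with no overlap. Set against PA, the log2 fold change was 1.06 ± 0.07 in Lat-M1 (limma adjusted p = 3.25e-05) and -0.55 ± 0.07 in Lat-M2 (limma adjusted p = 0.00531), and Lat-M2 was below Lat-M1 by -1.60 ± 0.077 (limma adjusted p = 1.03e-05).

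SEMA3F, a secreted repellent that binds neuropilin-2, rose in each Lat-M group. It was at 6.26 and 6.43 TPM in Lat-M1, 3.06 and 2.80 TPM in Lat-M2 and 1.49, 1.23 and 1.22 TPM in PA. The groups did not overlap, and Lat-M2 lay between the other groups. The log2 fold change against PA was 1.67 ± 0.12 in Lat-M1 (limma adjusted p = 3.96e-05) and 0.77 ± 0.12 in Lat-M2 (limma adjusted p = 0.00956), where the Lat-M2 call ended without the first Lat-M2 library (0.068, limma adjusted p). SEMA6B, a transmembrane ligand of class A plexins, was at 4.15 and 4.69 TPM in Lat-M1, 1.22 and 1.15 TPM in Lat-M2 and 0.929, 1.5 and 1.25 TPM in PA. Lat-M1 alone stood apart: Lat-M2 lay inside the PA range, with a log2 fold change of 1.29 ± 0.16 in Lat-M1 against PA (limma adjusted p = 0.000606) and of -1.31 ± 0.17 in Lat-M2 against Lat-M1 (limma adjusted p = 0.00119).

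SEMA5A and SEMA4D were the semaphorins that fell in Lat-M1. SEMA5A, a transmembrane semaphorin with thrombospondin repeats, was at 2.04 and 1.98 TPM in Lat-M1, 5.23 and 5.25 TPM in Lat-M2 and 5.86, 6.32 and 6.57 TPM in PA. All Lat-M values lay below all PA values, those of Lat-M1 by far the most. In log2 terms the change was -1.27 ± 0.09 in Lat-M1 against PA (limma adjusted p = 4.52e-05) and 1.05 ± 0.099 in Lat-M2 against Lat-M1 (limma adjusted p = 0.000241). In Lat-M2 against PA it was -0.21 ± 0.09 (limma adjusted p = 0.147), and the fall passed after scaling (0.0348). SEMA4D, the ligand of plexin B1, averaged 1.78 ± 0.00313 TPM in Lat-M1, 3.68 ± 0.325 TPM in Lat-M2 and 4.1 ± 0.315 TPM in PA (-0.87 ± 0.11 in Lat-M1 against PA, limma adjusted p = 0.000705).

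SEMA3C, a secreted semaphorin known from heart development, was the most abundant semaphorin and made up 84.4% of the summed semaphorin TPM in Lat-M1, with a share of 85.7% in Lat-M2 and also in PA. It averaged 640 ± 13.8 TPM in Lat-M1, 509 ± 29.5 TPM in Lat-M2 and 508 ± 21.6 TPM in PA. The rise in Lat-M1 was small (0.33 ± 0.062, limma adjusted p = 0.00412) and missed the test when the 4 structural RNAs were left out (0.0513), and the lower level in Lat-M2 than in Lat-M1 (-0.33 ± 0.068, limma adjusted p = 0.00829) did so without the second Lat-M1 library (0.0586). SEMA4C, a ligand of plexin B2, rose in Lat-M1 to 15.8 ± 0.254 TPM, against 10.6 ± 1.4 TPM in PA (0.55 ± 0.11, limma adjusted p = 0.00481), and was at 9.81 ± 0.328 TPM in Lat-M2. SEMA6A, a transmembrane ligand of plexins A2 and A4, and SEMA4B rose in Lat-M1 by 0.30 ± 0.068 and 0.38 ± 0.09 on the log2 scale (limma adjusted p = 0.00959 and 0.0124). After scaling the log2 fold change was 0.13 for SEMA6A, 0.22 for SEMA4B and 0.16 for SEMA3C. SEMA6A lost that call without the second Lat-M1 library (0.0855) or without the structural RNAs (0.0588), and SEMA4B on scaling (0.0632) or without either Lat-M1 library (0.052 and 0.0819, limma adjusted p). SEMA4F was lower in Lat-M2, at 2.44 ± 0.2 TPM, than in Lat-M1, at 3.71 ± 0.065 TPM (-0.46 ± 0.14, limma adjusted p = 0.0397). That call ended without the second PA library (0.0618) or any Lat-M library (limma adjusted p = 0.0739 to 0.148). SEMA4G, at 1.25 to 1.59 TPM, was called in no comparison, and MRPL43, which overlaps it on the opposite strand, was at 21.4 to 29 TPM (group means).

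Plexins and neuropilins receive these semaphorins. The neuropilin sum was 16.7 TPM in Lat-M1, 32.9 TPM in Lat-M2 and 37.6 TPM in PA, and NRP1 and NRP2 fell in different Lat-M groups. NRP1, a co-receptor of class 3 semaphorins and of vascular endothelial growth factor, was at 12.9 and 11.9 TPM in Lat-M1, 32.8 and 29.6 TPM in Lat-M2 and 34.3, 32.3 and 34.2 TPM in PA. The Lat-M1 values were well below the others, and Lat-M2 overlapped PA. Limma gave a log2 fold change of -1.37 ± 0.07 in Lat-M1 against PA (limma adjusted p = 9.33e-06) and 1.27 ± 0.077 in Lat-M2 against Lat-M1 (limma adjusted p = 2.89e-05). In Lat-M2 against PA it was -0.11 ± 0.07 (limma adjusted p = 0.33), which passed after scaling (0.0411). NRP2, the co-receptor of SEMA3F and of VEGF-C, averaged 4.36 ± 0.462 TPM in Lat-M1, 1.73 ± 0.259 TPM in Lat-M2 and 3.98 ± 0.339 TPM in PA. It fell in Lat-M2 (-0.87 ± 0.12 against PA, limma adjusted p = 0.00791), and its Lat-M1 value missed the test (0.11 ± 0.12, limma adjusted p = 0.517). NRP1 made up 73.9% of the 2 neuropilins in Lat-M1, 94.8% in Lat-M2 and 89.4% in PA.

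Among plexins, 3 of 6 tested members rose and 1 fell in Lat-M1, and 4 rose and none fell in Lat-M2, both against PA. After scaling 2 rose and 1 fell in Lat-M1, and 3 rose in Lat-M2. The shares over all tested genes were 33.2% higher and 11.6% lower in Lat-M1, and 12.7% and 2.24% in Lat-M2 (24% and 23%, and 7.47% and 8.41%, after scaling). PLXND1, the receptor of SEMA3E in vessels, was at 28.1 and 30.0 TPM in Lat-M1, 18.4 and 17.8 TPM in Lat-M2 and 6.18, 8.04 and 7.67 TPM in PA. The groups did not overlap and every Lat-M value was more than 2-fold above every PA value. Relative to PA, limma gave a log2 fold change of 1.86 ± 0.1 in Lat-M1 (limma adjusted p = 1.48e-05) and 1.21 ± 0.1 in Lat-M2 (limma adjusted p = 0.000871). Its ligand SEMA3E stayed between 0.0581 and 0.116 TPM, while SEMA3C, which also signals through plexin D1, was among the most abundant guidance transcripts.

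PLXNA2, a receptor of SEMA6A, was at 0.553 and 0.597 TPM in Lat-M1, 3.38 and 2.99 TPM in Lat-M2 and 1.74, 1.69 and 1.88 TPM in PA. Lat-M1 lay below PA and Lat-M2 above it. On the log2 scale the change against PA was -0.81 ± 0.14 in Lat-M1 (limma adjusted p = 0.00275) and 0.59 ± 0.14 in Lat-M2 (limma adjusted p = 0.033), and Lat-M2 exceeded Lat-M1 by 1.41 ± 0.15 (limma adjusted p = 0.000451). The Lat-M2 call against PA ended without any 1 of the 7 libraries (limma adjusted p = 0.054 to 0.167) and with a pseudocount of 0.1 (0.0534). PLXNA1, a partner of neuropilin-1, averaged 26.5 ± 0.546 TPM in Lat-M1, 20.5 ± 1.22 TPM in Lat-M2 and 13.3 ± 2.09 TPM in PA. On the log2 scale it rose by 0.95 ± 0.12 (Lat-M1) and by 0.59 ± 0.12 (Lat-M2) (limma adjusted p = 0.000769 and 0.0234), and the Lat-M2 call ended without either Lat-M2 library (0.148 and 0.0502) and with no filter on low values (0.064).

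PLXNB1, the receptor of SEMA4D, was higher in Lat-M2, at 14.3 ± 0.509 TPM, than in PA, at 10.3 ± 1.22 TPM (0.45 ± 0.099, limma adjusted p = 0.0283). The call ended on scaling (0.101), without the third PA library (0.055) or any Lat-M library (limma adjusted p = 0.0522 to 0.116), with no filter on low values (0.0673) and without the structural RNAs (0.0597). Against Lat-M1, at 9.78 ± 0.219 TPM, it was also higher (0.51 ± 0.11, limma adjusted p = 0.00967), a call that ended without the second library of Lat-M1 (0.0555) or of Lat-M2 (0.0525). PLXNB2, a receptor of SEMA4C and the most abundant plexin, averaged 91.3 ± 3.39 TPM in Lat-M1, 68.4 ± 8.27 TPM in Lat-M2 and 61.3 ± 11.6 TPM in PA. Its rise in Lat-M1 (0.58 ± 0.17, limma adjusted p = 0.031) ended on scaling (0.0693), without either Lat-M1 library (0.098 and 0.146), with no filter on low values (0.0577) and without the structural RNAs (0.0786). PLXNA3 was at group means of 7.36 to 8.85 TPM and was called in no comparison, and its exons overlap those of LAGE3 on the opposite strand, which was at 11.6 to 12.2 TPM.

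**Figure D3:**
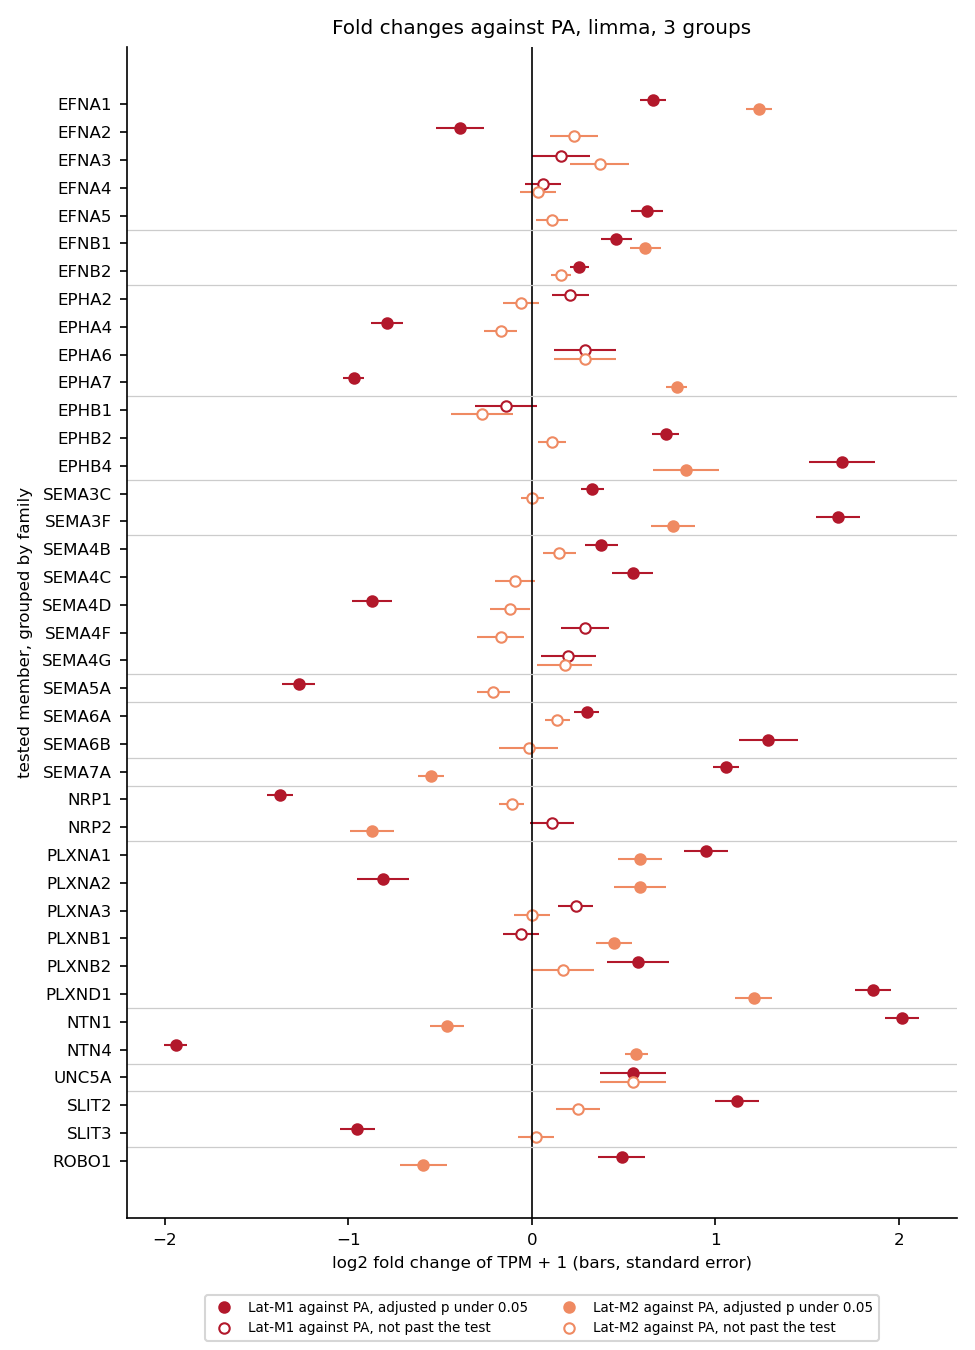
log2 fold change of TPM + 1 against PA with its standard error (bars) for the 39 tested guidance genes, Lat-M1 in dark red and Lat-M2 in orange; filled points passed the limma test at an adjusted p under 0.05. Lat-M1 spans -1.94 (NTN4) to 2.02 (NTN1), and Lat-M2 spans -0.87 (NRP2) to 1.24 (EFNA1).

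NTN1 and NTN4 had the largest changes of the 39 tested genes on the log2(TPM + 1) scale, in Lat-M1 against PA and in Lat-M2 against Lat-M1. NTN1, the secreted ligand of DCC, neogenin and UNC5 receptors, was at 16.9 and 17.7 TPM in Lat-M1, 2.36 and 2.2 TPM in Lat-M2 and 3.24, 3.82 and 3.53 TPM in PA. Lat-M1 was far above PA and Lat-M2 below it, with no overlap. The fitted change against PA, on the log2 scale, was 2.02 ± 0.092 in Lat-M1 (limma adjusted p = 5.71e-06) and -0.46 ± 0.092 in Lat-M2 (limma adjusted p = 0.0207), and Lat-M2 was below Lat-M1 by -2.48 ± 0.10 (limma adjusted p = 4.76e-06). The Lat-M2 call against PA ended without any 1 library other than the first PA library (limma adjusted p = 0.0507 to 0.0841).

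NTN4, a netrin of basement membranes that binds laminin, went the other way. It was at 13.9 and 13.4 TPM in Lat-M1, 86.3 and 79.2 TPM in Lat-M2 and 55.9, 53.4 and 56.9 TPM in PA. Lat-M1 was lowest and Lat-M2 highest, without overlap. The log2 fold change against PA was -1.94 ± 0.062 in Lat-M1 (limma adjusted p = 9.75e-07) and 0.57 ± 0.062 in Lat-M2 (limma adjusted p = 0.00249), and Lat-M2 exceeded Lat-M1 by 2.51 ± 0.067 (limma adjusted p = 7.27e-07). As a share of NTN1 and NTN4 together, NTN1 held 54.8 and 56.9% in Lat-M1, against 2.66 and 2.70% in Lat-M2 and 5.48, 6.67 and 5.83% in PA. The Lat-M1 libraries thus carried the 2 netrins at similar levels, where NTN4 was the main netrin in the other 5. NTN3 did not exceed 0.0438 TPM.

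UNC5A, a netrin receptor that can trigger cell death without its ligand, averaged 2.45 ± 0.131 TPM in Lat-M1, 2.48 ± 0.739 TPM in Lat-M2 and 1.36 ± 0.264 TPM in PA. Its rise in Lat-M1 (0.55 ± 0.18, limma adjusted p = 0.0413) ended on scaling (0.0624), without the structural RNAs (0.0745), with no filter on low values (0.0689) and without any 1 PA or Lat-M1 library (limma adjusted p = 0.0508 to 0.177). UNC5B, its relative known from vessels, had too low a mean to be tested but was at 1.13 and 1.2 TPM in Lat-M1, 0.0432 and 0.0297 TPM in Lat-M2 and 0, 0 and 0.0260 TPM in PA. Both Lat-M1 values were above all others, and with no filter on low values the log2 fold change against PA was 1.10 ± 0.079 (limma adjusted p = 0.000361). NEO1, which encodes the netrin receptor neogenin, averaged 8.21 ± 0.095 TPM in Lat-M1, 18.1 ± 1.38 TPM in Lat-M2 and 14.4 ± 0.595 TPM in PA.

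**Figure D4:**
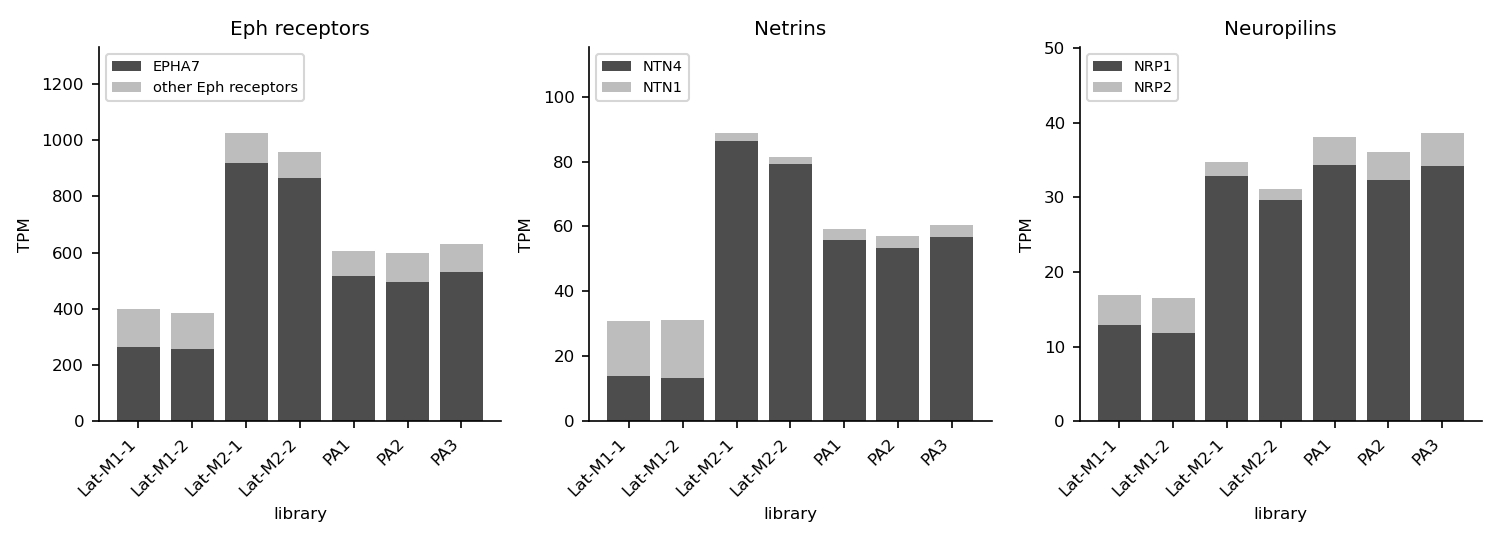
TPM summed over Eph receptors, netrins and neuropilins in each library, Lat-M1, Lat-M2 and PA from left to right, with the leading gene (dark) and the others (light). EPHA7 makes up 66.5, 90.1 and 84.1% of Eph receptor TPM in Lat-M1, Lat-M2 and PA, NTN4 makes up 44.2, 97.3 and 94.0% of netrin TPM, and NRP1 makes up 73.9, 94.8 and 89.4% of neuropilin TPM.

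SLIT and ROBO transcripts were low, and SLIT2 and SLIT3 changed in opposite directions in Lat-M1. SLIT2, a secreted ROBO ligand that guides ureteric bud position in the kidney, was at 4.85 and 5.60 TPM in Lat-M1, 2.31 and 2.5 TPM in Lat-M2 and 1.62, 1.98 and 1.97 TPM in PA. Lat-M1 lay above the others and Lat-M2 slightly above PA. The log2 fold change was 1.12 ± 0.12 in Lat-M1 against PA (limma adjusted p = 0.000363) and -0.87 ± 0.14 in Lat-M2 against Lat-M1 (limma adjusted p = 0.00252), while Lat-M2 against PA missed the test (0.25 ± 0.12, limma adjusted p = 0.2). SLIT3, a ligand of the same receptors, fell in Lat-M1 to 2.12 ± 0.0592 TPM, against 5.03 ± 0.197 TPM in PA (-0.95 ± 0.096, limma adjusted p = 0.000257), and was at 5.13 ± 0.44 TPM in Lat-M2. The summed SLIT level was 7.37 ± 0.576 TPM in Lat-M1, 7.55 ± 0.312 TPM in Lat-M2 and 6.9 ± 0.39 TPM in PA, and SLIT3 made up 28.9, 67.8 and 72.9% of it.

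ROBO1, the SLIT receptor that made up most of the ROBO level, was at 3.07 and 3.07 TPM in Lat-M1, 0.970 and 0.889 TPM in Lat-M2 and 1.85, 1.83 and 2.05 TPM in PA. Lat-M1 was highest and Lat-M2 lowest, without overlap. For ROBO1 the log2 fold change was 0.49 ± 0.13 in Lat-M1 against PA (limma adjusted p = 0.019), -0.59 ± 0.13 in Lat-M2 against PA (limma adjusted p = 0.0275) and -1.08 ± 0.14 in Lat-M2 against Lat-M1 (limma adjusted p = 0.00113). Against PA the Lat-M1 call ended without the first or second PA library or either Lat-M1 library (limma adjusted p = 0.054 to 0.104), and the Lat-M2 call without any 1 of the 7 libraries (limma adjusted p = 0.0577 to 0.0971).

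The remaining 27 guidance genes averaged under 1 TPM and were not tested. Of these, 13 were under 0.1 TPM in every library, among them EPHA3, EPHB3, ROBO2, ROBO4, SEMA3A, SEMA3D and SLIT1. Another 9 peaked between 0.1 and 0.5 TPM, namely EPHA5, EPHA10, EPHB6, PLXNA4, ROBO3, SEMA3E, SEMA5B, UNC5C and UNC5D. The other 5 reached 0.5 TPM in at least 1 library: UNC5B, PLXNB3, PLXNC1, SEMA3B and SEMA6C. PLXNB3, the receptor of SEMA5A, was at 2.05 and 2.45 TPM in Lat-M1, 0.373 and 0.200 TPM in Lat-M2 and 0.216, 0.354 and 0.474 TPM in PA. PLXNC1, the receptor of SEMA7A, was at 0.771 and 0.812 TPM in Lat-M1, 0.438 and 0.463 TPM in Lat-M2 and 0.0832, 0.123 and 0.0809 TPM in PA. Both Lat-M groups lay above PA for PLXNC1, and Lat-M1 alone did for PLXNB3. SEMA3B, a secreted semaphorin, was low in Lat-M1, at 0.0327 and 0.0679 TPM, against 1.16 and 1.13 TPM in Lat-M2 and 0.731, 0.770 and 0.462 TPM in PA. With no filter on low values the log2 fold change in Lat-M1 against PA was 1.27 for PLXNB3, 0.71 for PLXNC1 and -0.65 for SEMA3B (limma adjusted p = 0.00178, 0.00259 and 0.0132).

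Lat-M as a single group of 4 libraries, the comparison that the series design names, had 4 guidance genes above PA and none below (10.3% of 39, against 2.9% of all tested genes, 2.51% higher and 0.389% lower). PLXND1 was at least 2-fold higher, as were 0.532% of all genes, and 0.191% were at least 2-fold lower. They were PLXND1 (log2 fold change 1.54 ± 0.21, limma adjusted p = 0.0268), EFNA1 (0.95 ± 0.18, 0.0446), PLXNA1 (0.77 ± 0.15, 0.0464) and EFNB1 (0.54 ± 0.099, 0.0441). After scaling PLXND1 was past the test (limma adjusted p = 0.0346) and the other 3 were not, where 1.25% of all genes were called, 0.682% higher and 0.568% lower. Here the 2 Lat-M pairs were treated as alike, so that their difference counts as spread: EPHA7 had a log2 fold change of -0.089 ± 0.51, NTN1 of 0.78 ± 0.71 and NTN4 of -0.69 ± 0.72 (limma adjusted p = 0.926, 0.507 and 0.564). The number called was 0 without any 1 of the PA or Lat-M1 libraries, 1 without the first Lat-M2 library and 7 without the second. Where it was 0, limma left 7 to 9 of the 39 genes at an unadjusted p under 0.05. The share of all tested genes at that limit is not given here, so this count cannot be set against all genes.

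Partners and effectors of these receptors were counted from 3 lists of pathway genes. The counts stand beside 33.2% of all tested genes higher and 11.6% lower in Lat-M1, and 12.7% higher and 2.24% lower in Lat-M2, against PA (24% and 23%, and 7.47% and 8.41%, after scaling). The median log2 fold change over all tested genes was 0.16 for Lat-M1 and 0.14 for Lat-M2. Of 24 tested co-receptors and partners, 18 were higher and 4 lower in Lat-M1, and 9 higher and 4 lower in Lat-M2, against PA (16 and 6, and 6 and 5, after scaling), with median log2 fold changes of 0.54 and 0.09. PTPRD, a receptor phosphatase and synaptic adhesion molecule, averaged 47.8 ± 1.77 TPM in Lat-M1, 9.79 ± 0.108 TPM in Lat-M2 and 2.32 ± 0.0771 TPM in PA (3.88 ± 0.067 for Lat-M1, 1.70 ± 0.067 for Lat-M2, limma adjusted p = 6.17e-08 and 2.21e-05). FLRT3, a ligand of UNC5 receptors and a ROBO1 partner, fell in Lat-M1 to 1.29 ± 0.127 TPM, against 13.0 ± 0.505 TPM in PA (-2.62 ± 0.079, limma adjusted p = 8.08e-07), and was at 13.1 ± 0.559 TPM in Lat-M2. NRCAM fell in Lat-M2 to 0.64 ± 0.235 TPM, against 2.77 ± 0.348 TPM in PA (-1.2 ± 0.16, limma adjusted p = 0.00659), and was at 1.71 ± 0.0818 TPM in Lat-M1. VEGFC, a growth factor that binds neuropilin-2, also fell in Lat-M2, to 0.351 ± 0.0212 TPM against 1.76 ± 0.188 TPM in PA (-1.03 ± 0.14, limma adjusted p = 0.00669), and was at 7.05 ± 0.897 TPM in Lat-M1. CNTN1, a neural adhesion molecule, was at 12.8 ± 0.147 TPM in Lat-M1 against 1.57 ± 0.146 TPM in PA (2.42 ± 0.12, limma adjusted p = 7.44e-06), and at 0.686 ± 0.126 TPM in Lat-M2.

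Of 37 tested signal adaptors and GTPase regulators, 20 were higher and 4 lower in Lat-M1, and 9 higher and 1 lower in Lat-M2, against PA (15 and 10, and 6 and 4, after scaling). Their median log2 fold changes were 0.28 and 0.18. In Lat-M1 the lower members were near the share over all tested genes, at 4 of 37 against 11.6%, and at 10 of 37 against 23% after scaling. DOCK4, an exchange factor for Rac, was the member at least 2-fold higher in Lat-M1, at 6.79 ± 0.267 TPM against 2.57 ± 0.133 TPM in PA (1.13 ± 0.093, limma adjusted p = 9.11e-05). Of 35 tested kinases and cytoskeletal effectors, 22 were higher and 2 lower in Lat-M1, and 6 higher and 1 lower in Lat-M2 (16 and 4, and 5 and 7, after scaling), with medians of 0.32 and 0.068. The Lat-M2 counts before scaling were near the 12.7% and 2.24% over all tested genes. Those at least 2-fold higher in Lat-M1 were VASP, an actin filament elongation factor (253 ± 9.0 TPM against 101 ± 3.16 TPM in PA), MICAL2, an actin-oxidising enzyme of the family that acts below plexins (82.3 ± 4.86 against 38.5 ± 1.45 TPM), and MICALL1 (57.1 ± 0.602 against 26.8 ± 2.15 TPM; limma adjusted p = 4.66e-05, 7.45e-05 and 0.000155).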

How the data were processed

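Libraries were made from total RNA with the TruSeq RNA v2 or the NEBNext Ultra kit, per the labels' protocols. These do not say which kit made which library, so differences between kits and between groups cannot be told apart here. The submitters' processing notes name TopHat2 and the build hg19, and the quantifier, annotation and filters are not given in the sources used here. The deposited values are TPM per gene, as read from the values, which sum to 1000000 in each library.

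From these, log2(TPM + 1) was tested with limma 3.58.1 in R 4.3.3 (trend and robust options) over the 16724 identifiers with a mean of at least 1 TPM, with Benjamini-Hochberg adjustment at 0.05. Lat-M1, Lat-M2 and PA shared 1 fit of 3 groups, and Lat-M was set against PA in a fit of 2 groups. The script was tested on simulated data. Errors are SE for fold changes and SD for TPM. Symbols under several identifiers kept the one with the highest mean. Overlapping exons came from GENCODE 29.

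Values of each library are given for the 14 genes past the test with at least a 2-fold change in a comparison of the 3 groups and a mean of at least 3 TPM in a group. Other genes given by library, and those named beside their list, were chosen after their values were seen. The members and lists were chosen with earlier results of these data known. Alternatives were a pseudocount of 0.1, no filter, a minimum mean of 5 TPM, a 2-fold limit, median-ratio scaling, leaving out 4 structural RNAs, each library left out, a replicate block, the Lat-M libraries alone and, for Lat-M, the mean of both pairs.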

Additional observations from a re-analysis of the deposited data

Results flagged for a closer look

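The genes below were picked because Lat-M1 and Lat-M2 were called in opposite directions against PA. In the same fit the limma test of Lat-M2 against Lat-M1 largely follows from those 2 calls and adds no support. How many of all tested genes have this pattern is not given here. The log2 fold change of Lat-M2 against Lat-M1 was 2.51 for NTN4, 1.77 for EPHA7 and 1.41 for PLXNA2, which were lower in Lat-M1 and higher in Lat-M2 than in PA. It was -2.48 for NTN1, -1.60 for SEMA7A and -1.08 for ROBO1, which were higher in Lat-M1 and lower in Lat-M2 than in PA. Both sides use the same 3 PA libraries. EPHA7, NTN4 and SEMA7A kept their calls on both sides in every alternative that gave a value.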

How the results depend on the processing

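Of 68 called fold changes of guidance genes, 47 kept their call in every alternative that gave a value, 21 lost it at least once and 0 changed sign. SEMA6B in Lat-M2 against PA, which was not called, ranged from -0.115 to 0.071 as each library was left out, and was above 0 without the second PA library (0.071) or the second Lat-M2 library (0.008). With a minimum mean of 5 TPM, which left 23 genes, the number called was 19 in Lat-M1 against PA, 9 in Lat-M2 against PA and 15 in Lat-M2 against Lat-M1. Requiring a 2-fold change of TPM + 1 left 10, 2 and 9, and 1 for Lat-M against PA. For Lat-M against PA the number was also 0 with no filter (15 at an unadjusted limma p under 0.05), 1 on scaling, 1 without the 4 structural RNAs and 24 as the mean of both pairs in the fit of 3 groups. Shares over all tested genes are given for scaling and the 2-fold limit only. Other counts in this section, adjusted or not, therefore cannot be set against all genes. Leaving out each library gave 22 to 29, 6 to 11, 21 to 27 and 0 to 7 in the same order.

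The last number of a library name was not treated as a pairing, and deviations of libraries that share it correlated at -0.082 to 0.0312. With 2 libraries in each Lat-M group, deviations within a group mirror each other. These correlations therefore cannot settle whether libraries were prepared together. With that number as a replicate block the count was 24 in Lat-M1 against PA, 9 in Lat-M2 against PA, 24 in Lat-M2 against Lat-M1 and 0 in Lat-M against PA (7 at an unadjusted limma p under 0.05). Shares over all tested genes with this block are not given here. The cause of these shifts in the counts was not tested. Without read totals, counting error could not be estimated.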
